A study of Mus musculus with 9 samples.

Results

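10 genes of mature migratory dendritic cells and of the chemokine pathway around them were followed in mouse lymph node RNA. They were the chemokine genes Ccl17 and Ccl22, the receptor gene Ccr4, and Apol7c, Fscn1, Ccr7, Cacnb3, Il4i1, Cd83 and Cd40. The 10 genes were taken by symbol from a table of 37819 entries, and each symbol had a single entry. Ccl17 and Apol7c were chosen because they were low in both NrasQ61K groups, so their values against WT are described and were not tested. The other 8 genes were tested against WT, and all 10 were tested between the NrasQ61K groups.

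3 groups with 3 libraries each were compared. Tyr-NrasQ61K mice carry an activated Nras gene driven by the tyrosinase promoter, which is active in melanocytes, and their libraries were labelled Cre-negative with wild-type MHC class II on a crossed FVB/NJ background. Tyr-NrasQ61K MHCII-KO mice carry the same transgene and were labelled Cre-positive and MHC class II-negative. Wild-type (WT) mice were albino FVB/NJ littermates without the transgene. The sources used here give neither the ages nor the cells in which Cre acts. The labels do not state whether each library was a separate animal, and p-values cover the spread among libraries, which may be technical.

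Dendritic cells take up antigen in the skin, mature, and travel through the lymph to the draining node. During maturation they gain the receptor CCR7, which reads the node chemokines CCL19 and CCL21, and they rebuild their cytoskeleton with fascin. Mature cells secrete CCL17 and CCL22, the ligands of CCR4, and so attract T cells that carry this receptor, among them regulatory and skin-homing T cells. CD40 on their surface receives the T cell signal CD40L, and CD83 stabilizes MHC class II and CD86 there.

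Values are FPKM, fragment numbers scaled by transcript length and library size, which can be compared between genes per length but hold no read number. The labels name nevus melanocytes as the source and the paper names lymph nodes. The summed FPKM of 11 T cell genes was 209.5 to 490.9 in Tyr-NrasQ61K, 200.3 to 356.9 in MHCII-KO and 293 to 437.5 in WT libraries, and that of 9 B cell genes was 359 to 693.6, 376.4 to 543.9 and 551.5 to 687.6. Tyr-NrasQ61K replicate 2 and MHCII-KO replicate 2 lay apart on the first principal component, at 101.9 and 78.6 against -74.1 to 21.8 for the other 7 libraries, and Tyr-NrasQ61K replicate 3 lay apart on the second, at -99.95 against -12.9 to 35 for the other 8. The MHC class II gene H2-Ab1 was at 270.9, 108.2 and 164.6 FPKM in the libraries labelled MHCII-KO, against 148.9, 276.4 and 207.3 FPKM in Tyr-NrasQ61K libraries, a difference that did not pass the test (limma, adjusted p = 0.9999). B cells and dendritic cells of a node also express this gene, so these values do not check the label. Fold changes are on the scale of log2(FPKM + 1), which understates the change of genes with low FPKM. The median of all 16587 entries tested was -0.12 for Tyr-NrasQ61K against WT, -0.22 for MHCII-KO against WT, -0.08 for MHCII-KO against Tyr-NrasQ61K and -0.16 for both NrasQ61K groups against WT, a general shift against which each value below can be read.

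The bases upstream of Ccl17, Ccl22 and Apol7c are shown because these genes had the lowest log2 fold changes of the 10 against WT. They are from the RefSeq table of build GRCm38.p6, 5′ to 3′ in the direction of the gene, and stop before the first base of the GENCODE M21 gene. Capitals mark a STAT motif, TTC and GAA with any 4 bases between them, the only one of 4 motifs searched that occurs in them. Other spacings of TTC and GAA were not searched, and the STAT motif below means this spacing.
Ccl17, chr8:94810203-94810452, plus strand: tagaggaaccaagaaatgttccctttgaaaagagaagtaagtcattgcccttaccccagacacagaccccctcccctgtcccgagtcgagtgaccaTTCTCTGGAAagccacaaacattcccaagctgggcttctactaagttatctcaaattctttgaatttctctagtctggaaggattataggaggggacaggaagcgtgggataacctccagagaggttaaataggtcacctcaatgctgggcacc
Ccl22, chr8:94745434-94745589, plus strand: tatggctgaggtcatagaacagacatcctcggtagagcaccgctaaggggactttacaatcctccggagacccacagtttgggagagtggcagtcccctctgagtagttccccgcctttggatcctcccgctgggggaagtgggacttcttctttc
Apol7c, chr15:77533317-77533565, minus strand: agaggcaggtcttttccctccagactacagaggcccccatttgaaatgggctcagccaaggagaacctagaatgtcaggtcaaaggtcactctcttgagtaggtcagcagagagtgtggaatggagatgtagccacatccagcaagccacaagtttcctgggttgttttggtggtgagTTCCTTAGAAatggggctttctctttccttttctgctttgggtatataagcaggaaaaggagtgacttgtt

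The STAT motif reads the same on both strands, and 5.85% of 32851 RefSeq promoters held it in the 250 bases before the start. It stood once before Ccl17, from base -154 to -145, and once before Apol7c, from base -72 to -63, counted from the RefSeq start. The other motifs were also searched on both strands. The AP-1 motif TGANTCA, likewise the same on both strands, was found in 6.75% of promoters. The ETS-IRF composite, GGAA and GAAA with any 2 bases between them, was found in 2.3%. The NF-kB motif was GGGRNNYYCC, where N is any base, R is A or G and Y is C or T. It was found in 7.25%, and near matches were not counted. Of the 7 genes with a promoter in the table, Ccr4 held the AP-1 motif once, from base -143 to -137, and Cacnb3, Fscn1, Il4i1 and Ccl22 held none of the 4. The bases searched for Ccr4, Cacnb3 and Il4i1 lay wholly within the GENCODE M21 gene, not before it. A match describes these letters and is not evidence of binding.

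Ccl17 encodes a ligand of CCR4. Its level was 0.642, 0.379 and 1.02 FPKM in Tyr-NrasQ61K libraries, 0.658, 0 and 0.172 FPKM in MHCII-KO libraries, and 6.47, 5.22 and 7.08 FPKM in WT libraries. The WT libraries were all high and did not overlap either NrasQ61K group, and MHCII-KO replicate 2 was listed at 0. The mean was 9.22-fold lower in Tyr-NrasQ61K, 0.679 ± 0.320 FPKM against 6.26 ± 0.949 FPKM in WT (SD, n = 3 each). On the log2(FPKM + 1) scale the difference from WT was -2.12 in Tyr-NrasQ61K and -2.53 in MHCII-KO libraries, values that chose the gene. Ccl17 passed the filter of at least 1 FPKM in 3 libraries through the 3 WT libraries and Tyr-NrasQ61K replicate 3. In bulk RNA, fewer cells of a type and less RNA per cell cannot be told apart.

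Ccl22 encodes the other ligand of CCR4 and lies on the same chromosome 8 strand, ending 58.8 kb before Ccl17 starts, with the chemokine gene Cx3cl1 between them. Ccl22 was at 5.51, 3.69 and 11.7 FPKM in Tyr-NrasQ61K, 5.90, 4.39 and 5.03 FPKM in MHCII-KO, and 28.4, 14.8 and 16.9 FPKM in WT libraries. Every NrasQ61K library was below every WT library, and Tyr-NrasQ61K replicate 3 was the nearest to them. The log2 fold change was -1.48 ± 0.38 (SE) in Tyr-NrasQ61K against WT (limma, adjusted p = 0.214) and -1.74 ± 0.38 in MHCII-KO against WT (limma, adjusted p = 0.204). With both NrasQ61K groups against WT it was -1.61 ± 0.33 with a 95% interval of -2.36 to -0.85 (limma, adjusted p = 0.1003). Ccl22 thus did not pass the threshold over all entries in these fits. In the comparison of both groups it passed under several settings, among them median-ratio scaling, quantile normalization and library weights (limma, adjusted p = 0.0411, 0.0289 and 0.00173) and without Tyr-NrasQ61K replicate 3 (limma, adjusted p = 0.0478), and over all alternatives the adjusted p ran up to 0.421, reached without WT replicate 1. With library weights it also passed in Tyr-NrasQ61K and in MHCII-KO alone against WT (limma, adjusted p = 0.00639 and 0.00261). In these weighted comparisons 4069 and 5758 of 16587 entries were called lower. Tyr-NrasQ61K replicate 1 had a weight of 4.15, against 0.197 and 0.295 for replicates 2 and 3. MHCII-KO replicate 3 had a weight of 5.22, against 1.05 and 0.441 for replicates 1 and 2. Each weighted group mean thus rested largely on a single library. Cx3cl1 itself was at 1.45, 0.919 and 3.02 FPKM in Tyr-NrasQ61K, 1.84, 2.13 and 0.956 FPKM in MHCII-KO, and 2.18, 1.76 and 2.23 FPKM in WT libraries, which overlapped. Within 100 kb of the chemokine pair, 9 other entries were tested, with values of -0.44 to 0.25 for both groups against WT. Of these 7 were below 0, beside 63.5% of all entries, and none was called.

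Ccr4 encodes the receptor of both chemokines and is carried by T cells rather than by the dendritic cells that secrete the ligands. It was at 0.537, 1 and 1.21 FPKM in Tyr-NrasQ61K, 0.514, 0.636 and 0.858 FPKM in MHCII-KO, and 1.05, 1.03 and 1.35 FPKM in WT libraries. Tyr-NrasQ61K libraries overlapped WT, whereas MHCII-KO libraries were all lower. The log2 fold change for both NrasQ61K groups against WT was -0.27 ± 0.16 (limma, adjusted p = 0.333), with an interval of -0.64 to 0.11.

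**Figure D1:**
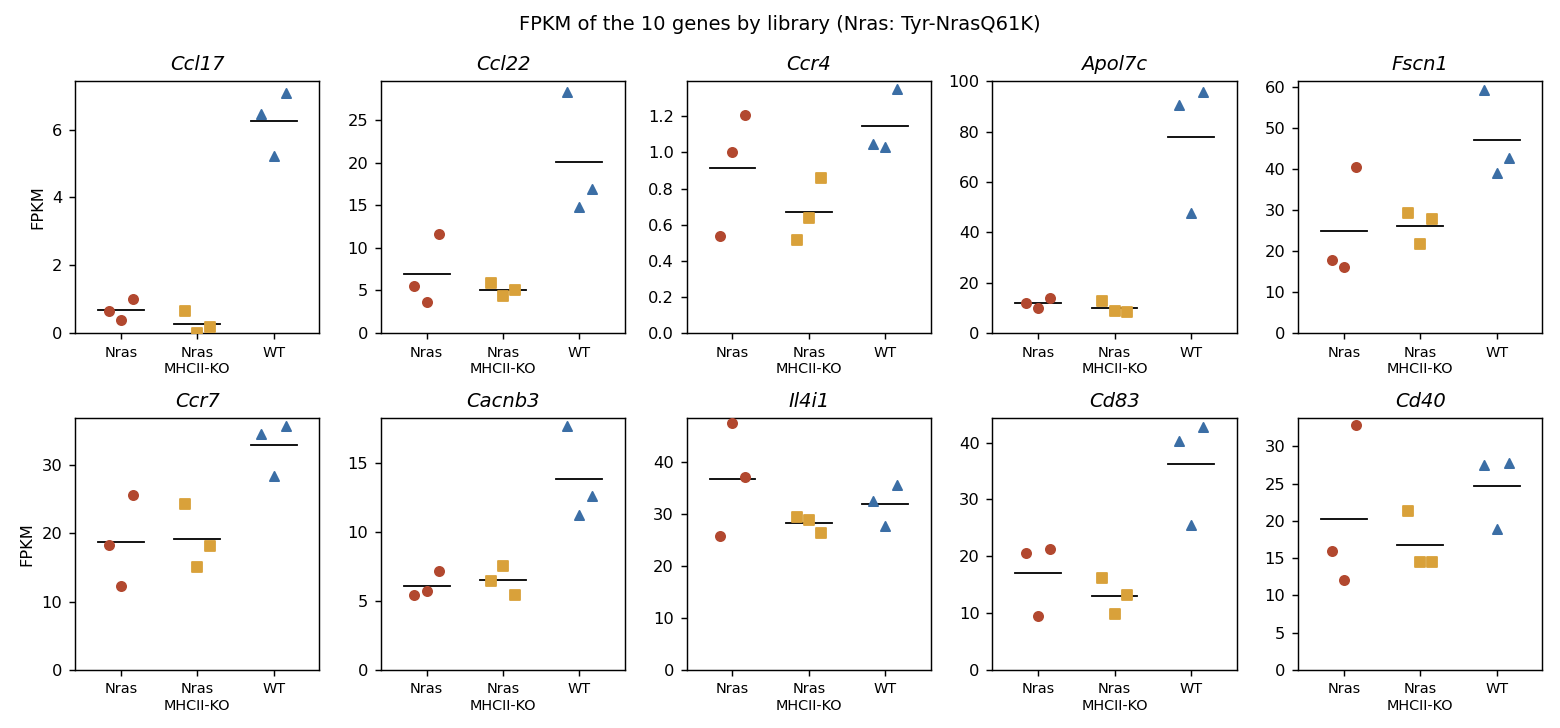
FPKM of the 10 genes in each library, with 1 point per library and a line at the group mean; each vertical axis starts at 0. Ccl17, Ccl22, Apol7c, Ccr7, Cacnb3 and Cd83 have every NrasQ61K library below every WT library. Il4i1 and Cd40 overlap WT in both NrasQ61K groups, and Ccr4 and Fscn1 overlap WT in Tyr-NrasQ61K only.

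Apol7c encodes an apolipoprotein L family member. It was at 12.1, 10.1 and 13.7 FPKM in Tyr-NrasQ61K, 12.6, 8.72 and 8.32 FPKM in MHCII-KO, and 90.4, 47.7 and 95.7 FPKM in WT libraries. No library of either NrasQ61K group came near WT, and the mean was 6.50-fold lower in Tyr-NrasQ61K and 7.89-fold lower in MHCII-KO than in WT libraries, values that chose the gene. In WT Apol7c had the highest mean of the 10 genes, 77.9 FPKM, whereas it was the sixth in both NrasQ61K groups. Of the 50-base stretches of its GENCODE transcripts, 25.6% also occur in transcripts of other genes, so reads may have been split between Apol7c and its copies.

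Some relatives of Apol7c were also called lower. Gm8221, an unprocessed pseudogene that shares Apol7c sequence and was named after its values were seen, was at 4.68, 7.35 and 6.55 FPKM in Tyr-NrasQ61K, 4.98, 4.58 and 6.13 FPKM in MHCII-KO, and 30.3, 20.9 and 38.8 FPKM in WT libraries, with a log2 fold change of -2.18 ± 0.23 for both groups (limma, adjusted p = 0.00714). Of 16 relatives of Apol7c, Fscn1 and Cacnb3 by family, 6 were tested and all 6 were below 0 with a median of -0.85, beside 63.5% of all entries below 0. Of these 2 were called lower, where 0.193% of all entries were called lower. Apol7a was at 0.741, 1.29 and 1.32 FPKM in Tyr-NrasQ61K, 0.899, 0.781 and 0.797 FPKM in MHCII-KO, and 7.61, 3.36 and 7.75 FPKM in WT libraries (log2 fold change -1.82 ± 0.24, limma adjusted p = 0.0251). Apol7a shares 15.5% of its 50-base stretches with other genes, among them Apol7c, which was chosen for its low values, so reads may have been split between them. Apol6, which shares 1.73% of its 50-base stretches with other genes, had a log2 fold change of -1.67 ± 0.20 (limma, adjusted p = 0.0146). Apol10b at -0.95 and Apol7e at -0.76, which share 6.11% and 74.1% of such stretches, did not pass (limma, adjusted p = 0.108 and 0.142).

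Fscn1 encodes fascin, which bundles actin in the dendrites of mature cells. It was at 17.9, 16.1 and 40.6 FPKM in Tyr-NrasQ61K, 29.2, 21.6 and 27.8 FPKM in MHCII-KO, and 59.3, 39.0 and 42.6 FPKM in WT libraries. Tyr-NrasQ61K replicate 3 lay within the WT range and the other 5 NrasQ61K libraries were below it. The log2 fold change was -0.90 ± 0.32 for both groups against WT (limma, adjusted p = 0.203), and -1.10 without Tyr-NrasQ61K replicate 3 (limma, adjusted p = 0.104).

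Ccr7 encodes the receptor that leads mature dendritic cells, and naive T cells, into the node. It was at 18.3, 12.3 and 25.7 FPKM in Tyr-NrasQ61K, 24.3, 15.0 and 18.1 FPKM in MHCII-KO, and 34.6, 28.4 and 35.8 FPKM in WT libraries. Every NrasQ61K library was below every WT library, and the log2 fold change for both groups was -0.80 ± 0.26 (limma, adjusted p = 0.195).

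Cacnb3 encodes a beta subunit of voltage-gated calcium channels. It was at 5.40, 5.69 and 7.21 FPKM in Tyr-NrasQ61K, 6.47, 7.56 and 5.46 FPKM in MHCII-KO, and 17.7, 11.2 and 12.6 FPKM in WT libraries. All 6 NrasQ61K libraries were below WT, with a mean of 6.10 ± 0.972 FPKM in Tyr-NrasQ61K, 6.50 ± 1.05 FPKM in MHCII-KO and 13.9 ± 3.42 FPKM in WT libraries (SD, n = 3 each). The log2 fold change was -1.05 ± 0.22 in Tyr-NrasQ61K against WT and -0.97 ± 0.22 in MHCII-KO against WT. For both groups it was -1.01 ± 0.19, with the lowest adjusted p of the 8 genes (limma, adjusted p = 0.0844).

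Cd83 was at 20.6, 9.49 and 21.2 FPKM in Tyr-NrasQ61K, 16.1, 9.84 and 13.2 FPKM in MHCII-KO, and 40.2, 25.5 and 42.7 FPKM in WT libraries. Every NrasQ61K library was below every WT library, and the log2 fold change for both groups was -1.24 ± 0.31 (limma, adjusted p = 0.146). Cd40, the receptor for the T cell signal, was at 15.9, 12.1 and 32.8 FPKM in Tyr-NrasQ61K, 21.4, 14.4 and 14.4 FPKM in MHCII-KO, and 27.5, 18.8 and 27.7 FPKM in WT libraries. Here Tyr-NrasQ61K replicate 3 was the highest of all 9 libraries, and the log2 fold change for both groups was -0.45 ± 0.32 (limma, adjusted p = 0.393), and -0.65 without that library (limma, adjusted p = 0.137). The summed FPKM of the B cell and T cell genes was also highest in that library, at 693.6 and 490.9. The part of these cells in the Cd40 value was not tested.

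Il4i1 encodes a secreted enzyme that oxidizes phenylalanine and other amino acids and limits T cells. It was at 25.7, 47.4 and 37.1 FPKM in Tyr-NrasQ61K, 29.4, 28.8 and 26.3 FPKM in MHCII-KO, and 32.4, 27.7 and 35.5 FPKM in WT libraries, and these groups overlapped. The log2 fold change for both groups was -0.0025 ± 0.23 (limma, adjusted p = 0.995), with an interval of -0.52 to 0.52. Il4i1 overlaps Nup62 on the same strand and Tbc1d17 on the other strand of chromosome 7, and 77.1% of its 50-base stretches occur in transcripts of Tbc1d17, Nup62 or Atf5, so its level is uncertain. Tbc1d17 was at 10.99, 38.4 and 40.9 FPKM in Tyr-NrasQ61K, 14.9, 22.3 and 22.01 FPKM in MHCII-KO, and 15.0, 10.6 and 11.8 FPKM in WT libraries, highest in the 2 Tyr-NrasQ61K libraries where Il4i1 was highest, and its part in the value of Il4i1 was not tested.

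Of the 8 genes not chosen on their values, none was called in Tyr-NrasQ61K against WT, where 0.0723% of all entries were called lower, and none in MHCII-KO against WT, where 0.0663% were. In Tyr-NrasQ61K against WT, 5 of 8 were lower at an unadjusted p under 0.05, Ccl22, Fscn1, Ccr7, Cacnb3 and Cd83, against 8.43% of all entries. This count was 3 without Tyr-NrasQ61K replicate 1, Tyr-NrasQ61K replicate 2 or WT replicate 3, beside 1319, 549 and 470 of all 16587 entries. It was 2 without WT replicate 1, beside 496 entries. In MHCII-KO against WT it was 4 of 8, the same genes without Fscn1, against 11.5% of all entries. For both groups it was 5 of 8, against 15.2%, and again none was called, where 0.193% of entries were called lower. Library weights, which gave Tyr-NrasQ61K replicates 2 and 3, MHCII-KO replicate 2 and WT replicate 2 weights of 0.197, 0.295, 0.441 and 0.319, called 7 of the 8 lower in that comparison, in a fit that called 5997 of 16587 entries lower. All of the Tyr-NrasQ61K libraries were below all WT libraries for 4 of 8 genes, against 10.5% of entries, all MHCII-KO libraries for 6 of 8, against 23.4%, and all 6 libraries for 4 of 8, against 8.44%. The median log2 fold change of the 8 genes was -0.91, -0.79 and -0.85 in the 3 comparisons, beside the medians of all entries given above. Both comparisons share the WT libraries.

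**Figure D2:**
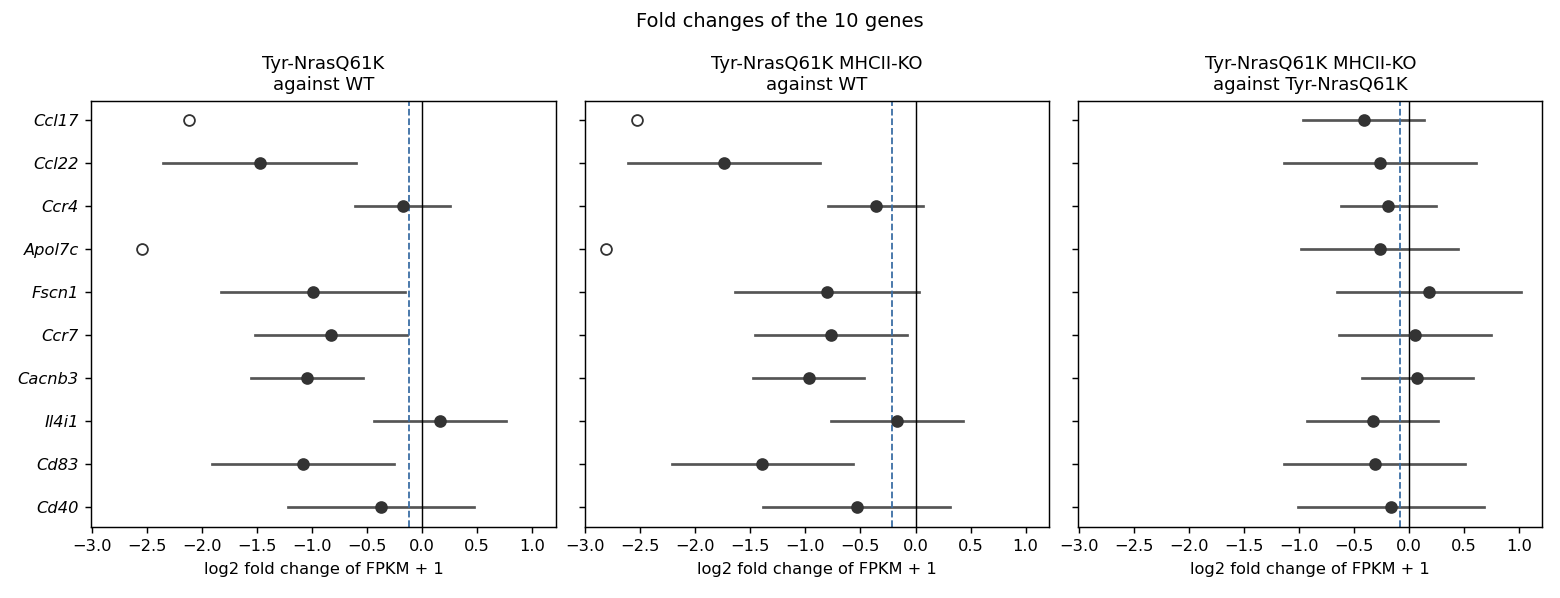
Log2 fold change of FPKM + 1 for the 10 genes in 3 comparisons, with 95% intervals from limma; the dashed line is the median of all entries tested. Open circles mark Ccl17 and Apol7c against WT, which were chosen on these values and carry no interval, and in the right panel every interval spans 0.

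Between the NrasQ61K groups, none of the 10 genes was called in MHCII-KO against Tyr-NrasQ61K, where 0.0482% of entries were called in either direction, and none had an unadjusted p under 0.05, against 1.52% of entries. Ccl17 differed by -0.41 ± 0.24 on the log2 scale, with an interval of -0.96 to 0.14 (limma, adjusted p = 0.9999). Ccl22 differed by -0.26, with an interval of -1.14 to 0.61, and Apol7c by -0.27, with an interval of -0.98 to 0.45. Fscn1, Ccr7 and Cacnb3 had positive differences of 0.19, 0.06 and 0.08. The intervals of all 10 genes span 0, and that of Fscn1 runs from -0.65 to 1.02, so the data do not show that the groups were alike.

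Within a library the genes can be set against Ccr7, which removes differences in library scale. Ccl17 was 3.51%, 3.07% and 3.96% of the Ccr7 FPKM in Tyr-NrasQ61K, 2.71%, 0% and 0.949% in MHCII-KO, and 18.7%, 18.4% and 19.8% in WT libraries. Ccl22 was 30.2%, 29.9% and 45.4% in Tyr-NrasQ61K, 24.3%, 29.3% and 27.7% in MHCII-KO, and 82.0%, 52.2% and 47.3% in WT libraries. Fscn1 overlapped, at 97.9% to 158% in Tyr-NrasQ61K, 120% to 154% in MHCII-KO and 119% to 172% in WT libraries. The ratios of Il4i1 and Cd40 were higher in both NrasQ61K groups than in WT. Ccr7 itself had a log2 fold change of -0.80 for both groups, against -0.0025 for Il4i1 and -0.45 for Cd40. These higher ratios thus do not show that either gene rose. Cd40 was at 87.1%, 98.2% and 128% in Tyr-NrasQ61K, 87.9%, 96.2% and 79.7% in MHCII-KO, and 79.5%, 66.4% and 77.4% in WT libraries, and Il4i1 was at 141%, 384% and 144% in Tyr-NrasQ61K, 121%, 192% and 145% in MHCII-KO, and 93.8%, 97.5% and 99.2% in WT libraries. Ccl17 was also lower relative to its neighbour Ccl22, at 11.6%, 10.3% and 8.72% of it in Tyr-NrasQ61K and 11.1%, 0% and 3.42% in MHCII-KO, against 22.8%, 35.2% and 41.8% in WT libraries. Ratios were described and not tested, and low ratios of Ccl17 against WT follow in part from the choice of this gene.

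**Figure D3:**
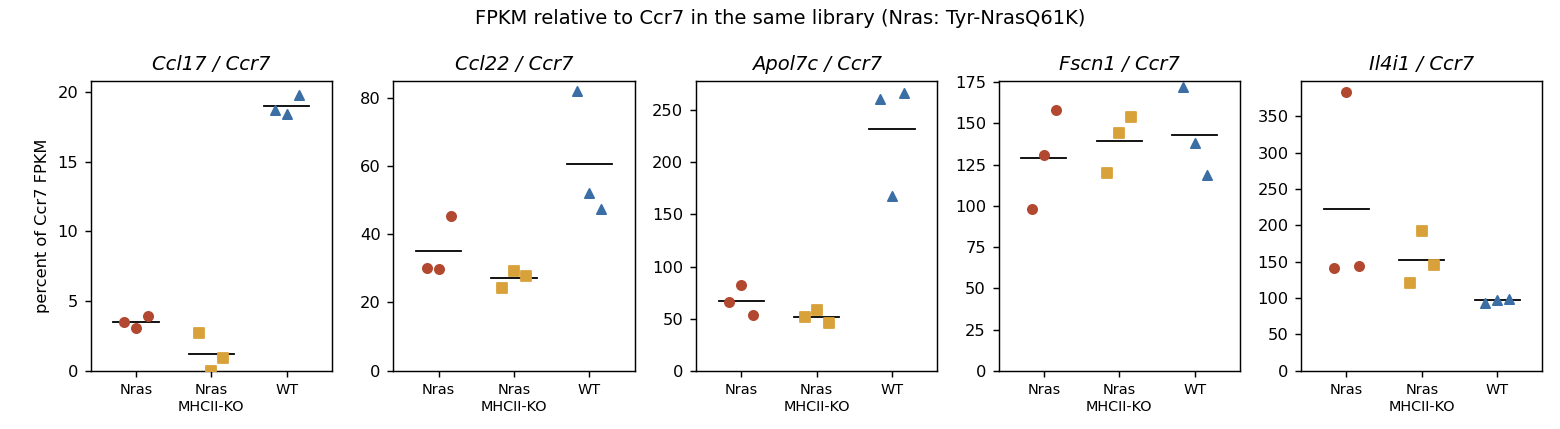
FPKM of 5 genes as a percent of the Ccr7 FPKM in the same library, with 1 point per library and a line at the group mean. Ccl17, Ccl22 and Apol7c lie below every WT library in both NrasQ61K groups, Fscn1 overlaps, and Il4i1 lies above. Ccl17 and Apol7c were chosen for their low values in these groups.

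Over the 9 libraries, and among the 11479 tested entries that are not predicted genes, small RNAs or receptor segments, the entry most like Ccl17 was Apol7c (Pearson r = 0.987 on the log2 scale), followed by Gbp1 (0.986), Gzmc (0.983), Npr3 (0.975) and Adamdec1 (0.975). Those most like Ccl22 were Clec10a (0.978), Plce1 (0.978), Slc30a4 (0.974), Agpat9 (0.970) and Snrpf (0.969). With group means removed, Ccl22 kept r = 0.916 with Clec10a and 0.961 with Fscn1, and Ccl17 kept r = 0.936 with Ccr7 and 0.790 with Apol7c. Agpat9, Slc30a4, Plce1 and Snrpf kept 0.966, 0.925, 0.913 and 0.882 with Ccl22. Gbp1, Gzmc, Npr3 and Adamdec1 kept 0.897, 0.662, 0.589 and 0.665 with Ccl17. Among the genes followed here, the lowest were Il4i1 and Ccr4 with Ccl22, at -0.0866 and 0.207. With Ccl17 they were Il4i1, Ccr4 and Cacnb3, at 0.017, 0.0566 and 0.228. These values do not single out dendritic cell genes. Ccl17 and Ccl22 had r = 0.926, and 0.677 within groups. All entries share the groups, the differences in depth and the general shift between libraries, so these are descriptions. Ccl17 and Apol7c were both chosen for their low values in the NrasQ61K groups, which sets much of their likeness, and Gbp1, Gzmc, Npr3 and Plce1 passed the filter through the 3 WT libraries alone.

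Of 24 other genes of mature dendritic cells, 23 were tested, and 19 of these had a negative log2 fold change in both NrasQ61K groups against WT. The list median was -0.64, none was called, and 13 had an unadjusted p under 0.05 with a lower value, against 15.2% of all entries. Of all entries 63.5% were below 0 in this comparison, which also holds for the counts below 0 that follow. Tmem123 was at 64.7, 15.4 and 69.5 FPKM in Tyr-NrasQ61K, 65.9, 27.0 and 43.2 FPKM in MHCII-KO, and 198.6, 115.7 and 180.7 FPKM in WT libraries. Nudt17 had a log2 fold change of -1.28 ± 0.21 (limma, adjusted p = 0.0581), Slco5a1 one of -0.86 ± 0.16 (limma, adjusted p = 0.0803) and Samsn1 one of -1.85 ± 0.51 (limma, adjusted p = 0.168). The costimulatory ligand gene Cd80 was at 0.01 and Cd86, its partner, at -1.25 (limma, adjusted p = 0.980 and 0.169). Of 14 dendritic cell lineage genes, 13 were tested, 11 were below 0 with a median of -0.64 and none was called. Flt3, the growth factor receptor of the lineage, was at -0.88 ± 0.18 (limma, adjusted p = 0.0921), and Clec10a and Cd209a, lectins of conventional type 2 cells, at -1.54 and -1.33 (limma, adjusted p = 0.0998 and 0.131). Zbtb46, the lineage factor, was at -0.25 and Sirpa, which macrophages also express, at 1.12 (limma, adjusted p = 0.341 and 0.175). Itgax, the other tested lineage gene above 0, was at 0.34 (limma, adjusted p = 0.376). Irf8 was not analysed here. The summed FPKM of the lineage genes overlapped, at 171.9 to 226.1 in Tyr-NrasQ61K, 137.6 to 177.1 in MHCII-KO and 109.9 to 204.9 in WT libraries, and Sirpa was the highest of them in all 9 libraries.

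Partner genes of these chemokines had negative values that did not pass the test. Ccrl1, the scavenger receptor ACKR4 that removes CCL19 and CCL21, was at 1.04, 0.565 and 1.13 FPKM in Tyr-NrasQ61K, 0.893, 0.533 and 0.707 FPKM in MHCII-KO, and 3.94, 2.04 and 3.59 FPKM in WT libraries (log2 fold change -1.19 ± 0.20, limma adjusted p = 0.0581). The CCR7 ligands Ccl19 and Ccl21a had log2 fold changes of -1.02 and -0.93 (limma, adjusted p = 0.190 and 0.196), and Dpp4, a protease that trims CCL22, of -0.52 (limma, adjusted p = 0.551). All 5 genes of this list were below 0, with a median of -0.93, and none was called. Of 11 genes of CCR4-bearing T cells, 8 were tested, 6 were below 0 with a median of -0.65 and none was called. Among them Ctla4, a T cell inhibitory receptor, was at -1.24, Ikzf2 at -0.81, Ccr8 at -0.74 and Il2ra at -0.56 (limma, adjusted p = 0.149, 0.131, 0.0819 and 0.210), and Ccr8 passed the filter through the 3 WT libraries alone. Foxp3, the regulatory T cell factor, was at 0.08 (limma, adjusted p = 0.810).

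Genes of the signals that act on the 10 genes were counted in the same way. Of 18 genes of CD40 and NF-kB signalling, 12 were below 0 with a median of -0.19, and none had an unadjusted p under 0.05. The lowest p values were those of Relb, Cd40lg, Nfkb1 and Icam1, at -0.41, -0.42, -0.32 and -0.36 (limma, adjusted p of at least 0.2997). Of 11 genes that raise Ccl17, 9 were tested with a median of -0.05; Csf2ra and Kdm6b were at 0.65 and 0.40, and Il7r and Stat5a at -0.999 and -0.34 (limma, adjusted p = 0.204, 0.223, 0.240 and 0.241). Of 8 genes of tryptophan and arginine breakdown and the receptor gene Ahr, 4 were tested, with a median of -0.43, Ahr at -0.61, Kmo at -0.57, Kynu at -0.30 and Tdo2 at -0.07 and none called.

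**Figure D4:**
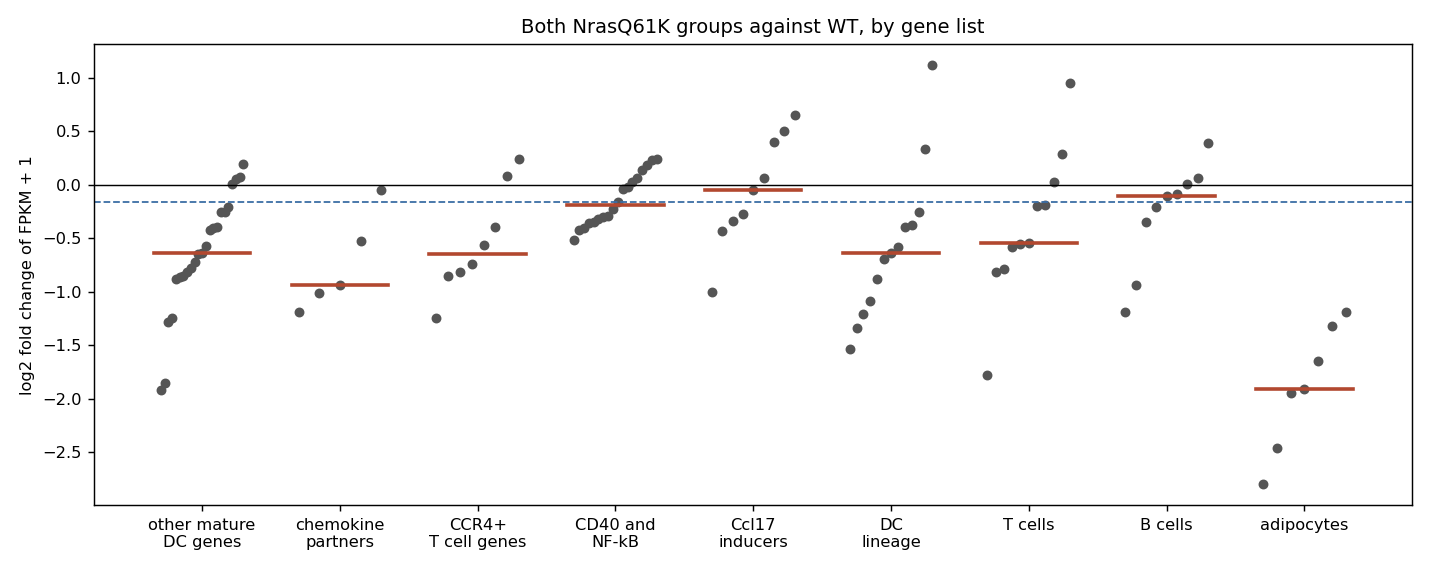
Log2 fold change of FPKM + 1 in both NrasQ61K groups against WT, with 1 point per tested gene in 9 lists, a red line at the list median and a dashed line at the median of all entries. Other mature dendritic cell genes have a median of -0.64, CD40 and NF-kB genes of -0.19 and adipocyte genes of -1.91.

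Some markers of other cells differed between the groups. The 7 adipocyte genes summed to 38.99 to 182 FPKM in Tyr-NrasQ61K, 59.9 to 167.8 in MHCII-KO and 269.3 to 497.3 in WT libraries, all 7 were below 0 and Lep and Plin1 were called lower (limma, adjusted p = 0.0282 and 0.0445), where 0.193% of entries were. Lep passed the filter through the 3 WT libraries alone, where it is high, so that its call follows in part from the filter. The 10 macrophage genes summed to 94.4 to 201.9, 99.6 to 248.9 and 162.3 to 401 FPKM, and of the 8 tested 4 were below 0 and 4 above, with a median of -0.24 and none called. Timd4 was at -3.22, Marco at -2.06 and Csf1r at -0.86, against 0.65 for Mertk, 0.87 for Cd5l and 2.18 for Siglec1, which was listed at 0 in 2 WT libraries (limma, adjusted p of at least 0.0791). The 7 melanocyte genes summed to 106.9 to 216.5, 112.2 to 169.3 and 2.66 to 6.64 FPKM, and Gpnmb and Dct were called higher at 5.17 and 1.90 (limma, adjusted p = 0.000385 and 0.0362), where 0.205% of entries were called higher. Gpnmb, which macrophages can also express, made up most of that sum, and the other 6 genes summed to 8.77 to 12.5, 3.41 to 8.17 and 1.09 to 2.81 FPKM. Dct passed the filter through NrasQ61K libraries alone, and Tyr was at 0.01 (limma, adjusted p = 0.977). T cell genes had a median of -0.54 and B cell genes of -0.11, with none called. The 7 stroma genes had a median of -0.03, and the 6 epidermis genes, none tested, summed to at most 2.39 FPKM in any library. The part of these cells in the values of the 10 genes was not tested.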

How the data were processed

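RNA sequencing of 9 libraries was analysed. The deposited values are FPKM made by the authors with Cufflinks; the submitters' processing notes name TopHat, Cufflinks, Cuffdiff and build mm10, with versions and annotation not given in the sources used here. These values give no read number, so absolute depth is unknown. Relative depth was estimated roughly from the most frequent ratio of low values to WT replicate 1. It was 0.756 in Tyr-NrasQ61K replicate 2 and 0.869 in MHCII-KO replicate 2, against 1 in WT replicate 1 and 1.27 to 1.68 in the others. Of 37819 entries, 18 with several values per library were left out. Entries with at least 1 FPKM in at least 3 of the 9 libraries (16587) were fitted as log2(FPKM + 1) in R 4.3.3 by limma 3.58.1 (a mean per group, a mean-variance trend) and Benjamini-Hochberg adjustment over all entries, and called at an adjusted p of at most 0.05. Tables and plots used Python 3.11.15 with pandas 2.3.3, numpy 2.4.6 and matplotlib 3.10.9. The fit was tested on simulated data.

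The 10 genes, the lists and the alternatives were chosen with earlier results of these data known. Named genes were the 10 genes, up to 4 entries of each list with the smallest p in both NrasQ61K groups against WT and any called, and the 5 entries most correlated with Ccl17 and with Ccl22. Gm8221, Tbc1d17, Cx3cl1, Cd80, Cd86, Zbtb46, Itgax, Foxp3, Cd5l, Siglec1 and Tyr were added after their values were seen. Coordinates are from GENCODE M21 and promoters from RefSeq, both of GRCm38 (mm10). Sequence sharing was counted over transcript stretches of 50 bases. An exact 0 can be a failed estimate: 9 protein-coding entries with a mean over 50 FPKM were listed at 0 in a library.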

Additional observations from a re-analysis of the deposited data

How the results depend on the processing

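In the fit as reported, 0 of the 8 genes not chosen on their values were called against WT. Library weights called 7 in Tyr-NrasQ61K against WT, 6 in MHCII-KO against WT and 7 with both groups. Of all 16587 entries, 4069, 5758 and 5997 were called lower in these comparisons. Median-ratio scaling and quantile normalization each called 1, Ccl22, with both groups. Over all entries in that comparison, median-ratio scaling called 87 higher and 77 lower. Quantile normalization called 71 higher and 102 lower, against 34 and 32 in the fit as reported. Leaving out single libraries gave 0 to 1 called with both groups, and 0 in the other comparisons. A fit with a replicate block called 1 in Tyr-NrasQ61K against WT, 2 in MHCII-KO against WT (Ccl22 and Cd83) and 4 with both groups (Ccl22, Ccr7, Cacnb3 and Cd83). Over all entries, 627, 666 and 2117 were called lower in these comparisons. Ccl22 was called in MHCII-KO and with both groups (limma, adjusted p = 0.0489 and 0.0268). The labels do not say that the numbers pair animals, and same-numbered libraries had correlations of -0.0384 to 0.332, of which 3 of 9 were over 0.1. Libraries with different numbers had correlations of -0.27 to 0.162. The cause of the differences between settings was not tested.

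Il4i1 changed sign most often. In Tyr-NrasQ61K against WT it was 0.16, but -0.30 with library weights, -0.039 without the 2 libraries that stood apart on the first principal component and -0.039 to 0.39 with single libraries left out. In MHCII-KO against WT it was 0.12 with median-ratio scaling and 0.11 with quantile normalization, and with both groups 0.24, 0.20 and -0.10 to 0.11 with single libraries left out. Between MHCII-KO and Tyr-NrasQ61K, Ccr4 was 0.17 with library weights, Cd40 0.018 with quantile normalization, and Ccr7 and Cacnb3 -0.044 and -0.062 without the 2 libraries that stood apart. With single libraries left out, that difference ran from -0.58 to 0.14 for Ccl22, -0.053 to 0.59 for Fscn1, -0.20 to 0.30 for Ccr7, -0.023 to 0.19 for Cacnb3 and -0.45 to 0.23 for Cd40. Ccl17 and Ccr4 did not pass the filter of 1 FPKM in all 9 libraries. The limits are 3 libraries per group, no read numbers, and marker genes of other cells that differ between groups.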
